A study of Mus musculus with 4 samples.

Results

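The expression of hepcidin and of the genes around it that sense, move and store iron was described in mouse liver. The 10 genes were Hamp, Hamp2, Bmp6, Id1, Tfr2, Hfe, Slc40a1, Tfrc, Fth1 and Ftl1, out of 24346 gene symbols measured in each library. They were selected by symbol at a time when the lower level of Hamp2 in the 7-ketocholesterol group was already known, so their differences between the groups are given as a description and without a test.

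The livers came from wild type male C57BL/6 mice, and every animal received the NASH diet, a feed rich in fat, cholesterol and sucrose with bile salt that produces steatohepatitis, for 3 weeks. In the control group (n = 2) the NASH diet was given alone. In the 7KC group (n = 2) the NASH diet also contained 7-ketocholesterol (7KC), an oxidized form of cholesterol. No liver from mice on ordinary chow entered the comparison, so the comparison is of the NASH diet with and without 7KC and gives nothing on the NASH diet itself.

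Hepcidin is a peptide hormone made mainly by hepatocytes. It binds ferroportin, the iron exporter encoded by Slc40a1, and causes its removal from the cell surface, so that less iron enters the blood from the gut, from macrophages and from liver stores. Its transcription is driven by bone morphogenetic proteins (BMPs) from liver endothelial cells, which act through SMAD proteins, and by interleukin-6, which acts through STAT3. Mice carry a pair of neighbouring hepcidin genes: Hamp encodes the hormone, and the product of Hamp2 is not known to control iron in the same manner. Ferritin, transferrin receptor and ferroportin are also set after transcription, by iron regulatory proteins that bind stem-loops in their mRNAs.

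Hamp lies on the minus strand of chromosome 7 (mm10, chr7:30942368-30944032), and Hamp2 lies on the same strand at chr7:30922372-30924681. The 250 bases before the RefSeq start site of each gene (GRCm38.p6) are shown because the hepcidin pair parted in expression while its sequence is nearly shared. The Hamp window covers chr7:30944030-30944279 and the Hamp2 window covers chr7:30924182-30924431, both on the minus strand. The gene span given above for Hamp2, which is from GENCODE, starts further upstream. The Hamp2 window therefore lies inside that span and is upstream only of the RefSeq start site. Capitals mark the letters GGCGCC, the core of the BMP-responsive element known from the hepcidin promoter, and TTCNNNGAA, the core to which STAT3 binds. Each of these letter strings is its own reverse complement, so a match counts for both strands.
Hamp: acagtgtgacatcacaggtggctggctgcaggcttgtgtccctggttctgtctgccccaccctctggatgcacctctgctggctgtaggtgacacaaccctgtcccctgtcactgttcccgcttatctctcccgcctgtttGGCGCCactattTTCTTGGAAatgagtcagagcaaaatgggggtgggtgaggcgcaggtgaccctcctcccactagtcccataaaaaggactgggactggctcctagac
Hamp2: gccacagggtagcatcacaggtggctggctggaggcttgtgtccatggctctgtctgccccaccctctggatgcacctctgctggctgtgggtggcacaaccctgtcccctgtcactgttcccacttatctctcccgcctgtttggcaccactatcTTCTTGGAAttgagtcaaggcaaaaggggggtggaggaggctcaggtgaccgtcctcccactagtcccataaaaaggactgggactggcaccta

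Of 247 aligned bases of the windows, 227 were identical (91.9%). With positions counted from 1 at the 5′ end of the printed Hamp sequence, GGCGCC stood at position 142 of Hamp, and the aligned stretch of Hamp2 differed from it by G145A, so the Hamp2 window held no match. TTCTTGGAA was found in both windows, at position 154 of Hamp and at position 157 of Hamp2. Measured from the start site, these matches lay at -109 and -97 in Hamp and at -94 in Hamp2, as the map of the windows shows. Among 32817 RefSeq windows of the same length, 9.59% held GGCGCC, 7.01% held TTCNNNGAA and 0.366% held both. Of the other members in the RefSeq table, the first Tfrc window also held GGCGCC, at -89. A match of letters does not show that a factor bound there.

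**Figure D1:**
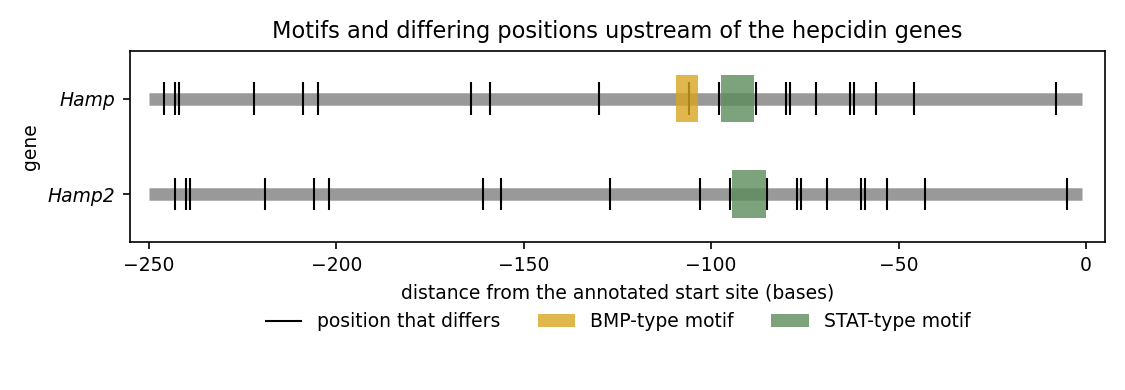
Map of the 250 bases upstream of the RefSeq start sites of Hamp and Hamp2, with distance from that start site in bases on the x axis and the gene on the y axis. Black ticks stand at positions that differ in the alignment and coloured boxes at matches to GGCGCC (BMP-type) and TTCNNNGAA (STAT-type). Both windows hold the STAT-type letters, and the BMP-type letters at -109 of Hamp have no counterpart in Hamp2.

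The transcripts of the pair are also close. Over 410 aligned bases of the spliced Hamp and Hamp2 transcripts, 388 were identical (94.6%). Of the 336 stretches of 75 bases in the Hamp transcript, the length of the reads, 171 matched Hamp2 with up to 2 mismatches (50.9%), and 13 matched it exactly (3.87%). Of the 363 stretches in Hamp2, 171 (47.1%) matched Hamp. Reads from the shared stretches could have been assigned to either gene, and how they were treated is not given in the sources used here. The sum of both genes is therefore given beside each of them.

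Hamp expression differed little between the groups, whereas Hamp2 expression was lower in both 7KC livers. Hamp was 3227 and 2929 FPKM in the control livers against 3635 and 3164 FPKM in the 7KC livers, where FPKM is the number of fragments relative to the length of the exons of a gene and to the mapped fragments of the library. The libraries of the groups overlapped. The means of the control group and the 7KC group were 3078 ± 210 FPKM and 3400 ± 333 FPKM (SD, n = 2 each). On the scale of log2(FPKM + 0.5), which is used for all differences, the 7KC group was higher by 0.14 (SE 0.20).

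Hamp2 was 170 and 209 FPKM in the control livers against 80.7 and 92.1 FPKM in the 7KC livers. Both 7KC libraries were below both control libraries. The means were 189 ± 26.9 FPKM and 86.4 ± 8.04 FPKM (SD, n = 2 each), a level 2.19-fold lower in the 7KC group and a log2 difference of -1.12 (SE 0.15). The values stood for roughly 690 and 684 reads in the control livers against 262 and 301 reads in the 7KC libraries, so that the error from counting came to at most 6.17% of a value. This error leaves out reads of shared sequence that may have been assigned to the wrong gene, and Hamp had roughly 8510 to 11600 reads per library. In bulk liver, fewer cells of a type and less RNA per cell cannot be told apart, for Hamp2 as for every gene below.

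Hamp was far more abundant than its neighbour, and the total of the pair overlapped between the groups. The summed level of both genes was 3397 and 3138 FPKM in the control livers against 3715 and 3256 FPKM in the 7KC livers, a log2 difference of 0.09. Hamp2 made up 5.02% and 6.65% of this sum in the control livers against 2.17% and 2.83% in the 7KC livers. The share did not overlap between the groups, with means of 5.83 ± 1.15% and 2.5 ± 0.463% (SD, n = 2 each). Put against all FPKM of a library, the hepcidin pair took 0.496% and 0.468% in the control group and 0.599% and 0.585% in the 7KC group.

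**Figure D2:**
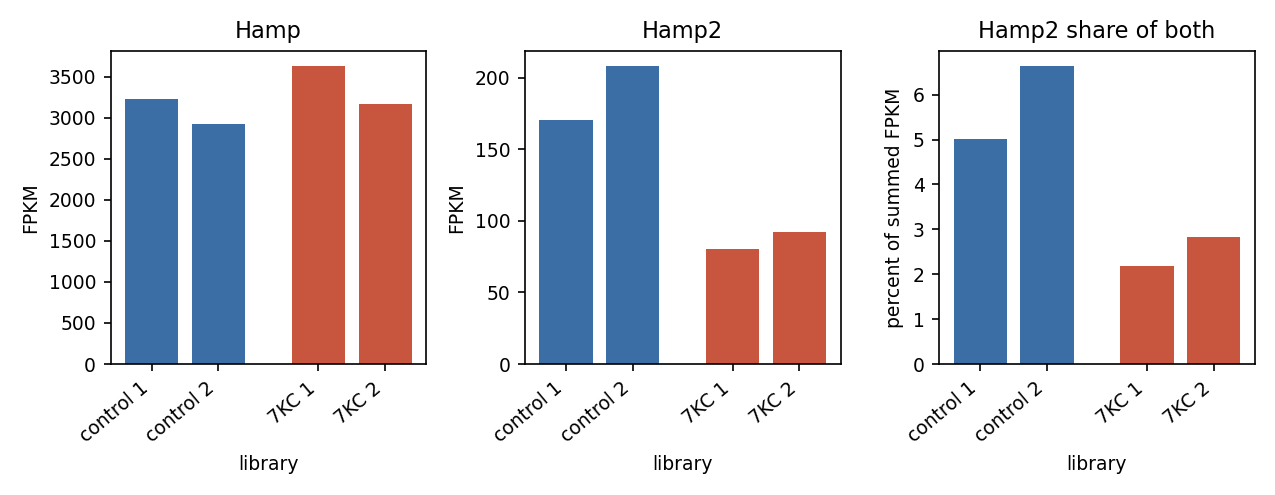
Bars from 0 for each liver library (x axis), showing Hamp and Hamp2 in FPKM and Hamp2 as a percent of the summed FPKM of both genes (y axes), with control libraries in blue and 7KC libraries in red. Hamp lies between 2929 and 3635 FPKM in all 4 libraries, while Hamp2 is 170 to 209 FPKM in the control group and 80.7 to 92.1 FPKM in the 7KC group.

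Relative to albumin, the main secreted protein of hepatocytes, Hamp stood higher in the 7KC libraries. The Hamp level was 7.77% and 11.6% of the Alb level in the control livers against 13.5% and 16.7% in the 7KC livers, without overlap. Alb itself varied widely within the groups. It was 41547.4 and 25202.5 FPKM in the control livers against 26969.1 and 18988.4 FPKM in the 7KC livers, with overlap (log2 difference -0.52, SE 0.41). Markers of hepatocytes as a whole were lower in the 7KC group. Of 12 hepatocyte markers, 9 were lower in both 7KC libraries than in both control libraries (75%, against 27.4% of all genes) and none was higher. Their median log2 difference was -0.51. Their summed level was 61016 to 73271 FPKM in the control group and 39492 to 52237 FPKM in the 7KC group. When every library was rescaled to the hepatocyte markers, an alternative chosen after seeing the data, the log2 difference was 0.64 for Hamp and -0.63 for Hamp2. Whether the hepatocyte share had a part in either level was not tested.

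BMP6 is the main ligand that signals liver iron to hepcidin, and ID1 is a transcriptional regulator whose gene is a direct target of BMP-SMAD signaling. The Bmp6 gene (chr13:38345107-38500302) gave 1.66 and 1.80 FPKM in the control livers against 0.923 and 2.06 FPKM in the 7KC livers. The 7KC libraries lay on either side of the control libraries, and the log2 difference was -0.22 (SE 0.30). These levels stood for 42.8 to 96.1 reads per library, so counting error alone reached 15.3%. Without 7KC replicate 1 the difference turned to 0.20, and without 7KC replicate 2 it was -0.65.

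Id1 (chr2:152736251-152737410) was 6.36 and 7.09 FPKM in the control livers against 9.56 and 15.7 FPKM in the 7KC livers. Both 7KC libraries were above both control libraries, but they differed from each other more than the lower of them differed from the control libraries. The means were 6.72 ± 0.516 FPKM and 12.6 ± 4.33 FPKM (SD, n = 2 each), a ratio of 1.88 and a log2 difference of 0.82 (SE 0.24). The Id1 levels stood for 71.7 to 158 reads per library, with a counting error of 7.95% to 11.8%. Without 7KC replicate 2 the log2 difference was 0.48, and it stayed positive under all 14 alternatives. Not all of these could change its sign. Leaving out 1 library could not, as the libraries did not overlap, and the filter, variance trend and replicate block left the value unchanged. Other targets of the same pathway were mixed. Id3 was 41.1 and 42.7 FPKM in the control livers against 47.3 and 51.5 FPKM in the 7KC livers. Id4 was 1.20 and 1.19 FPKM in the control livers against 1.30 and 1.29 FPKM in the 7KC livers, so both genes were higher in each 7KC library. Their log2 differences were small, 0.23 (SE 0.11) for Id3 and 0.08 (SE 0.16) for Id4. Of all genes, 25.1% were higher in this way. Id2, Smad6, Smad7 and Atoh8 overlapped between the groups, at log2 differences of 0.22, -0.12, 0.10 and -0.28.

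Transferrin receptor 2 and HFE are the membrane proteins through which hepatocytes read the iron load of transferrin and adjust hepcidin. Tfr2 (chr5:137569840-137587481) was 118 and 104 FPKM in the control livers against 98.5 and 94.2 FPKM in the 7KC livers. Both 7KC libraries were lower, with means of 111 ± 9.60 FPKM and 96.4 ± 3.03 FPKM (SD, n = 2 each) and a log2 difference of -0.20 (SE 0.12). Without control replicate 1 the Tfr2 difference was -0.11, and it was 0.0049 once the libraries were rescaled to the same sum. Hfe (chr13:23702034-23710854) was 22.7 and 23.0 FPKM in the control livers against 22.4 and 25.1 FPKM in the 7KC livers. The groups overlapped, and the log2 difference was 0.05 (SE 0.11).

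The remaining members carry the stem-loops that iron regulatory proteins bind, the iron-responsive elements. A search of the annotated transcripts (GENCODE M21, mm10) for a C, a stem of 5 paired bases and the loop CAGTGN found 1 element in the 5′ untranslated region of Fth1 (chr19:9982733-9982761), 1 in that of Ftl1 (chr7:45459778-45459806), 1 in that of Slc40a1 (chr1:45925464-45925492) and 4 in the 3′ untranslated region of Tfrc, of which the first is shown (chr16:32631220-32631248). They are printed for their known effect: in a 5′ region the element limits translation, and in a 3′ region it protects the mRNA. Iron is thus known to change ferritin and ferroportin protein with no change in the mRNA measured here. Only these 4 genes and Alas2 were searched by region, so the other members were not compared. Alas2 also held 1 element in its 5′ untranslated region. Capitals mark the loop.
Fth1: tcctgcttcaaCAGTGCttgaacggaacc
Ftl1: tcttgcttcaaCAGTGTttgaacggaaca
Slc40a1: aacttcagctaCAGTGTtagctaagtttg
Tfrc: attatcggaagCAGTGCcttccataatta

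The ferritin elements differed from each other by C3T, C17T and C29A, counted from 1 at the 5′ end of the printed Fth1 element. The same pattern, here counted anywhere in a transcript and so also in coding parts, occurred in 565 of 58797 protein-coding transcripts (0.961%).

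Ferroportin and transferrin receptor 1 mRNA did not separate the groups. Slc40a1 (chr1:45908068-45926523), the only known iron exporter, was 47.7 and 54.1 FPKM in the control livers against 42.7 and 61.4 FPKM in the 7KC livers, with a log2 difference of 0.01 (SE 0.20). The 7KC libraries held both the lowest and the highest value, and the difference was 0.27 without 7KC replicate 1 and -0.25 without 7KC replicate 2. Tfrc (chr16:32608920-32632794), the receptor by which cells take up transferrin-bound iron, was 7.55 and 3.91 FPKM in the control livers against 4.19 and 4.88 FPKM in the 7KC livers, with a log2 difference of -0.25 (SE 0.30). Here the spread was within the control group: control replicate 1 was the highest of the 4 libraries and control replicate 2 the lowest. Without control replicate 1 the Tfrc difference was 0.19, and without control replicate 2 it was -0.68.

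Among the ferritin subunits, the heavy chain was higher and the light chain slightly lower in the 7KC libraries. Fth1 (chr19:9980598-9985098), the chain that oxidizes iron for storage, was 3169 and 2543 FPKM in the control livers against 3581 and 3844 FPKM in the 7KC livers. Both 7KC libraries were above both control libraries, with means of 2856 ± 442 FPKM and 3712 ± 186 FPKM (SD, n = 2 each) and a log2 difference of 0.39 (SE 0.21). Without control replicate 2 the Fth1 difference was 0.23, and rescaling raised it to 0.59 for the same library sum and to 0.89 relative to the hepatocyte markers. Ftl1 (chr7:45457944-45459884), the chain that helps the iron core form, was 4318 and 4398 FPKM in the control livers against 4238 and 3816 FPKM in the 7KC livers. Its log2 difference was -0.12 (SE 0.20), and its sign turned to 0.09 when the libraries were rescaled to the same sum and to 0.12 after quantile normalization.

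The ratio of Fth1 to Ftl1, which does not depend on how a library is scaled, was 0.734 and 0.578 in the control livers against 0.845 and 1.01 in the 7KC livers, without overlap. The light chain is hard to count: 836 of its 894 stretches of 75 bases (93.5%) matched another annotated gene with up to 2 mismatches, chiefly the pseudogene Ftl1-ps1, against 85 of 855 (9.94%) for Fth1. Macrophages are rich in ferritin, and their markers were higher in the same libraries as Fth1. Of 10 markers of monocytes and recruited macrophages, 7 were higher in both 7KC libraries than in both control libraries (70%, against 25.1% of all genes) and none was lower. The summed level of these markers was 432 to 704 FPKM in the control group and 1305 to 2191 FPKM in the 7KC group. Their part in the ferritin levels was not tested.

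Across members, the levels per length of exon model spanned a wide range. By mean over the 4 libraries the order was Ftl1 (4192 FPKM), Fth1 (3284 FPKM), Hamp (3239 FPKM), Hamp2 (138 FPKM), Tfr2 (104 FPKM), Slc40a1 (51.4 FPKM), Hfe (23.3 FPKM), Id1 (9.67 FPKM), Tfrc (5.13 FPKM) and Bmp6 (1.61 FPKM). Neighbours in this order were separate in both groups except as follows. Fth1 and Hamp overlapped in both groups. The control mean of Hamp (3078 FPKM) was above that of Fth1 (2856 FPKM), and the order was the other way in the 7KC group. Hamp2 stood above Tfr2 in both control libraries and below it in both 7KC libraries, at means of 86.4 and 96.4 FPKM. Ftl1 and Fth1 overlapped in the 7KC group, and Id1 and Tfrc overlapped in the control group.

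**Figure D3:**
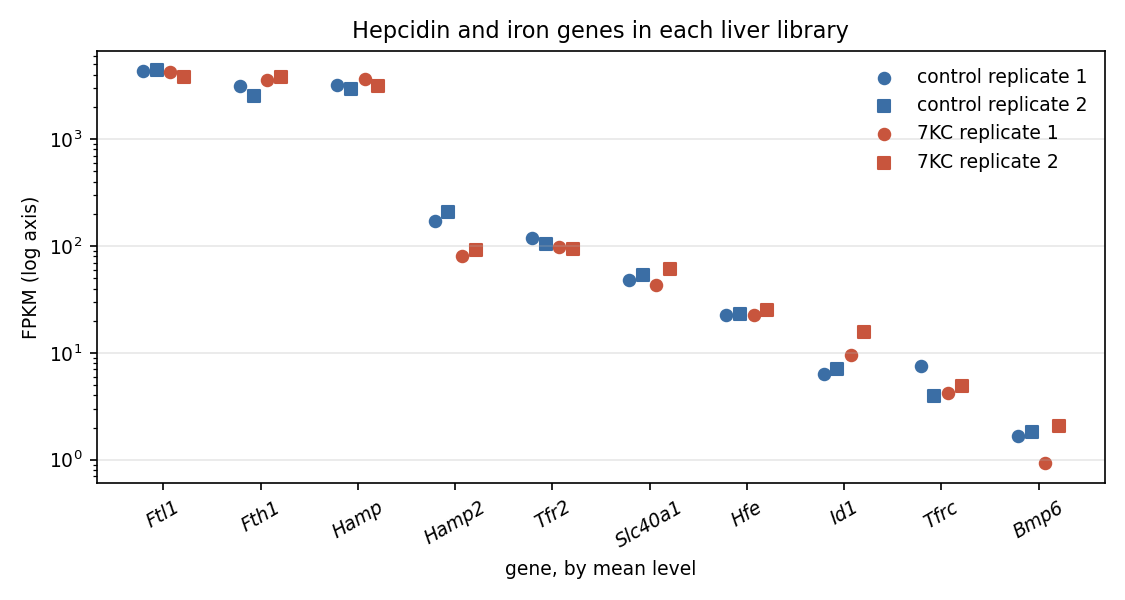
FPKM of the 10 genes on a log axis (y) with genes ordered by their mean level (x), 1 point per library, control in blue and 7KC in red, circles for replicate 1 and squares for replicate 2. The groups part most at Hamp2 (170 and 209 against 80.7 and 92.1 FPKM) and at Id1 (6.36 and 7.09 against 9.56 and 15.7 FPKM), and the other genes differ less between the groups.

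All 10 members passed the filter on low values, an average over the libraries of no less than 0.5 FPKM. Of the 10, 2 were higher in both 7KC libraries than in both control libraries (Id1 and Fth1) and 3 were lower (Hamp2, Tfr2 and Ftl1). Among all 12299 genes that passed the filter, 25.1% were higher and 27.4% were lower by the same rule. The members' median log2 difference was -0.05, with 5 values above 0 and 5 below, and that of all genes was -0.03. The shares of the members were near those of all genes. When every gene was tested with limma at an adjusted p under 0.05, 59 were called as higher with 7KC (0.48%) and 3 as lower (0.0244%).

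**Figure D4:**
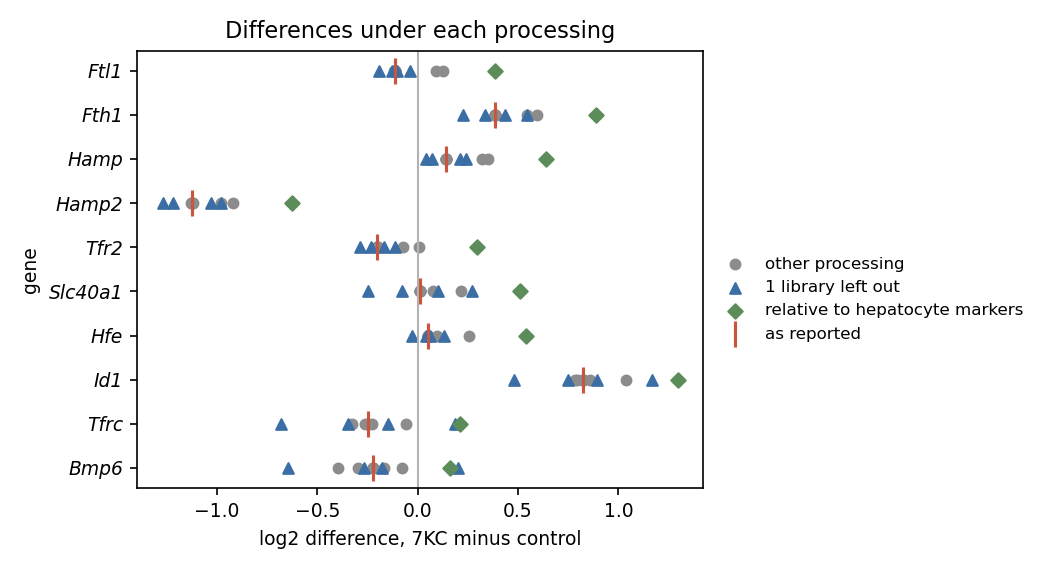
Log2 difference, 7KC minus control (x axis), of each of the 10 genes (y axis) as reported (red line), with 1 library left out (blue triangles), relative to the hepatocyte markers (green diamonds) and under the other processing alternatives (grey circles). Hamp2 stays below 0 between -1.27 and -0.63, Hamp, Id1 and Fth1 stay above 0, and the other members have values on both sides of 0.

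The wider iron and heme pathway, 129 genes that are no members, was grouped into 8 lists by role. Of these, 112 genes passed the filter, and none was called by limma at an adjusted p under 0.05, while 12 higher and 8 lower genes had an unadjusted p under 0.05. In the same fit of 12299 genes, 2192 genes had an unadjusted p under 0.05. By libraries, 26 of the 112 were higher without overlap (23.2%, against 25.1% of all genes) and 37 were lower (33%, against 27.4%). The median log2 difference of the 112 was -0.06. Rescaling every library to the same sum moved the median of all genes from -0.03 to 0.17 and put the medians of the 8 lists between 0.01 and 0.33, so a lean of a list to either side is read against that shift.

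Upstream of hepcidin, no gene of the BMP-SMAD branch outside the members passed the test. Of 24 genes tested in this list, 4 were higher (16.7%, against 25.1% of all genes) and 7 were lower (29.2%, against 27.4%) without overlap. The median log2 difference of these 24 genes was -0.08, and none of them had an unadjusted limma p under 0.05. Members of the branch, such as Id1, are left out of these counts and were described above without a test. Tmprss6, the protease that cleaves hemojuvelin and thereby restrains hepcidin, was 136 and 151 FPKM in the control livers against 122 and 103 FPKM in the 7KC livers (log2 difference -0.35, SE 0.14, limma adjusted p = 0.282). Bmp5, a further ligand, stood at -0.43 (limma adjusted p = 0.385), and Bmp7, another, at 0.31 (limma adjusted p = 0.438). Among receptors and transducers, the type II receptor genes Acvr2a and Bmpr2 and the transducer Smad5 were lower in both 7KC libraries, at -0.27, -0.18 and -0.19. The transducer Smad1 was higher in both, at 0.11. Acvr1, Bmpr1a and Smad4 overlapped between the groups, at -0.04, 0.01 and -0.09. Smad9 was at -0.41, with 7KC libraries that differed widely (3.42 and 1.67 FPKM). Hfe2, the gene of the co-receptor hemojuvelin, was 33.01 and 35.0 FPKM in the control livers against 35.6 and 33.7 FPKM in the 7KC livers. Bmp2, the endothelial ligand that acts beside Bmp6, overlapped between the groups at 5.23 to 7.03 FPKM.

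The inflammatory inputs to hepcidin were mixed. Of 14 genes tested, 4 were higher (28.6%, against 25.1% of all genes) and 2 lower (14.3%, against 27.4%) without overlap, with a median log2 difference of 0.01. Il1b, a cytokine of activated macrophages, was 6.56 and 4.52 FPKM in the control livers against 9.57 and 13.8 FPKM in the 7KC livers (log2 difference 1.01, SE 0.24, limma adjusted p = 0.13). The kinase gene Jak2 was 0.57 higher on the log2 scale (limma adjusted p = 0.132). Il6ra, the receptor subunit that binds interleukin-6, was 22.003 and 27.9 FPKM in the control livers against 13.8 and 20.4 FPKM in the 7KC livers (log2 difference -0.55, limma adjusted p = 0.288). Il6 itself was below the filter, at 0.0823 to 0.199 FPKM, and Stat3 and Socs3 stood at log2 differences of 0.09 and 0.28.

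Genes of iron uptake, reduction and transport included the largest differences outside the members. Of 10 tested, 4 were higher (40%, against 25.1% of all genes) and 2 lower (20%, against 27.4%) without overlap, with a median log2 difference of 0.08. Lcn2, whose product lipocalin 2 captures the siderophores by which bacteria take up iron, was 405 and 267 FPKM in the control livers against 566 and 979 FPKM in the 7KC livers (log2 difference 1.18, SE 0.33, limma adjusted p = 0.175). Without 7KC replicate 2 the Lcn2 difference was 0.78. Slc11a1, a metal transporter of the phagosomes of macrophages, was 11.1 and 10.3 FPKM in the control livers against 18.2 and 30.7 FPKM in the 7KC livers (log2 difference 1.11, SE 0.25, limma adjusted p = 0.116). Steap4, a metalloreductase, was 0.48 higher on the log2 scale (limma adjusted p = 0.129). Slc39a14, the hepatocyte carrier of iron that is not bound to transferrin, was 62.7 and 70.0 FPKM in the control livers against 55.5 and 48.1 FPKM in the 7KC livers. As for Fth1, the macrophage markers were higher in the same libraries, and their part was not tested.

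Storage, chaperone and export genes other than the ferritins and ferroportin had no gene of 6 that was higher without overlap (against 25.1% of all genes). The 3 that were lower (50%, against 27.4%) were Pcbp4, Ncoa4 and Pcbp1, at log2 differences of -0.32, -0.31 and -0.15 (limma adjusted p = 0.41, 0.314 and 0.528). NCOA4 carries ferritin to autophagy, and the poly(C)-binding proteins deliver iron to ferritin. Rescaled to the same library sum, Pcbp1 turned to 0.05. Among the sensors of iron and oxygen, 4 of 10 were higher (40%, against 25.1% of all genes) and 4 lower (40%, against 27.4%) without overlap. The hypoxia-inducible factor genes lay on opposite sides, Hif1a at 0.57 (SE 0.12, limma adjusted p = 0.104) and Epas1 at -0.37 (limma adjusted p = 0.201), and Cul1, a ubiquitin ligase scaffold, was at -0.22 (limma adjusted p = 0.345). Aco1 and Ireb2, which encode the iron regulatory proteins, stood at -0.21 and -0.06.

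Of 22 genes for mitochondrial iron import and iron-sulfur cluster assembly, 11 were lower (50%, against 27.4% of all genes) and 2 higher (9.09%, against 25.1%) without overlap, with a median log2 difference of -0.16. Hspa9, a mitochondrial chaperone, was at -0.44 (limma adjusted p = 0.192) and Bola3, a cluster transfer factor, at -0.33 (limma adjusted p = 0.307), whereas Hscb, a co-chaperone, was at 0.46 (limma adjusted p = 0.289). The hepatocyte markers were lower in the same libraries, and rescaling to the same library sum put the median of the list at 0.04.

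In heme synthesis, the first and rate-limiting enzyme of liver stood apart from the later steps. Alas1 was 177 and 178 FPKM in the control livers against 301 and 241 FPKM in the 7KC livers (log2 difference 0.60, SE 0.15, limma adjusted p = 0.141). Of the 10 heme synthesis genes tested, 5 were lower without overlap (50%, against 27.4% of all genes), and the other gene that was higher was Tspo, at 0.28. Urod was at -0.40 (limma adjusted p = 0.17), and Alas2, the erythroid form of the enzyme, was 38.6 and 44.6 FPKM in the control livers against 33.6 and 25.9 FPKM in the 7KC livers (log2 difference -0.49, limma adjusted p = 0.23).

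In heme breakdown and scavenging, 6 of 16 genes were higher (37.5%, against 25.1% of all genes) and 3 lower (18.8%, against 27.4%) without overlap, and the median log2 difference was 0.12. Hmox1, the inducible heme oxygenase that frees iron from heme, was 49.3 and 48.0 FPKM in the control livers against 60.6 and 85.4 FPKM in the 7KC livers (log2 difference 0.56, SE 0.18, limma adjusted p = 0.219). Without 7KC replicate 1 the Hmox1 difference was 0.81, and without 7KC replicate 2 it was 0.31. The heme transporter Slc48a1 was at 0.49 (limma adjusted p = 0.168) and Mfsd7b, the symbol under which the heme exporter FLVCR1 is listed, at 0.47 (limma adjusted p = 0.289). Macrophages handle much heme, and the macrophage markers given beside Fth1 were higher in the same libraries. Their part in these levels was not tested. Transport proteins of heme and hemoglobin in plasma were abundant in every library, with Hpx (hemopexin) at 5879 to 6659 FPKM and Hp (haptoglobin) at 4742 to 6043 FPKM.

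**Figure D5:**
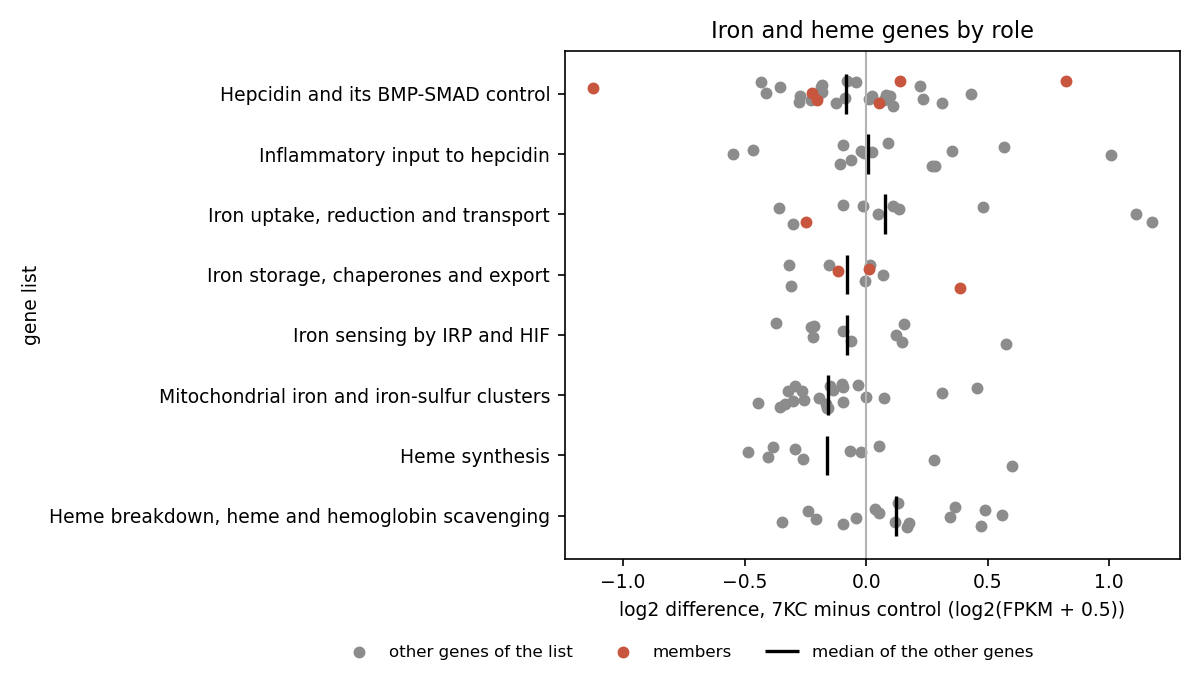
Log2 difference, 7KC minus control on log2(FPKM + 0.5) (x axis), of each tested gene in 8 lists of iron and heme genes (y axis), with grey points for genes of the list, red points for the 10 members and a black bar at the median of the other genes. The medians lie between -0.16 and 0.12, and Hamp2 at -1.12 lies apart from the rest of its list.

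The genes whose pattern over the 4 libraries was most like that of each hepcidin gene were found by Euclidean distance between centred log2 profiles. For Hamp2 they were Fam180a (distance 0.0106), Ctgf (0.143) and Bmp10 (0.191). Fam180a was 1.85 and 2.35 FPKM in the control livers against 0.606 and 0.766 FPKM in the 7KC livers. Ctgf, which encodes a matricellular growth factor, was 16.5 and 21.2 FPKM in the control livers against 8.70 and 9.59 FPKM in the 7KC livers. Bmp10 was 0.998 and 1.63 FPKM in the control livers against 0.263 and 0.456 FPKM in the 7KC livers. For Hamp they were Fam96b (distance 0.0288), Fiz1 (0.0322) and Gnl1 (0.0357), all with log2 differences between 0.11 and 0.15. With 4 libraries a small distance is easily reached among 12299 genes, and the measure describes these libraries only.

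The libraries were of similar depth. From the steps of low FPKM values and transcript lengths, 13700000 to 17000000 mapped reads per library were estimated, and 71.8% to 75.2% of values of up to 10 reads lay within 0.1 of a whole read. Log2 values of replicates correlated at 0.980 and 0.983 within the groups (across genes, which are not independent replicates) and at 0.958 to 0.979 between groups. The defining hepatocyte genes were high in all libraries, with Alb at 3.41% to 6.07% of all FPKM. Markers of T and NK cells were higher in both 7KC libraries for 8 of 8 genes, and resident Kupffer cell markers for 6 of 9 (66.7%), against 25.1% of all genes. Of the Kupffer cell markers, Vsig4 was lower in both 7KC libraries (11.1%, against 27.4% of all genes), and Clec4f and Folr2 overlapped. Sinusoidal endothelial markers, of the cells that make Bmp6, had a median log2 difference of -0.02. Nothing states that the libraries of a group came from separate cages or days, so p-values measure the spread between these samples only, and an exact permutation test of 2 against 2 libraries could not give a 2-sided p under 0.333.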

How the data were processed

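RNA sequencing of liver was analysed in 4 libraries, 2 per group, with groups taken from the sample titles. Per the labels and the study's methods, the authors made stranded mRNA libraries, sequenced 75-base single-end reads, mapped them to mm10 with TopHat2, Bowtie2 and SAMtools and calculated FPKM with the Cufflinks suite. The submitters' processing notes name TopHat2 2.1.1, Bowtie2 2.2.8, SAMtools 0.1.18 and Cuffdiff 2.2.1, whereas the methods give other versions of the first 3 and name Cufflinks. The deposited FPKM values are no counts. The annotation and the treatment of multi-mapped reads are not given in the sources used here. The number of value columns left unused was 0.

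Values were taken as log2(FPKM + 0.5). Genes averaging no less than 0.5 FPKM (12299) were fitted with limma 3.58.1 in R 4.3.3 (variance trend, group as the only term, Benjamini-Hochberg adjustment over all genes), and the fit was tested on simulated data. As FPKM is set against the mapped reads of each library, abundant genes move the others. A log2 difference understates the change of low genes.

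Members and gene lists were chosen with earlier results of these data known. Besides the 10 members, the text names from each list every called gene and the 3 non-members with the largest log2 differences among those whose libraries did not overlap, and for Hamp and Hamp2 the 3 genes of nearest profile. Other genes named were chosen after their values were seen, for their role. All symbols of the pathway lists were matched, and Trbc2 and Ahsp of the marker lists were not. Sequences come from RefSeq (GRCm38.p6) and GENCODE M21 (mm10), read with Biopython 1.88. The RefSeq table used has no window for Id1 and Slc40a1. Approximate reads assume that 200 bases are taken off each transcript. Replicate numbers were not taken to pair the samples. Alternatives changed the pseudocount, filter, scaling, variance trend, replicate block and libraries.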

Additional observations from a re-analysis of the deposited data

How the results depend on the processing

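With 2 libraries per group, counts of called genes over the whole table moved widely. Against 59 higher and 3 lower genes, a pseudocount of 1 FPKM gave 111 higher genes, a minimum mean of 2 FPKM gave 106 higher, no filter gave 0 higher and 1 lower (2634 of 16858 genes at an unadjusted limma p under 0.05), and a prior variance without a trend gave 39 and 1. Rescaling to the same library sum (TPM) gave 359 and 6, moved the median of all genes from -0.03 to 0.17 on the log2 scale and called 2 pathway genes, Steap4 (adjusted p = 0.0431) and Alas1 (adjusted p = 0.0313). Leaving out each library in turn gave 2 to 404 higher and 1 to 54 lower genes: 404 and 54 with control replicate 1 left out, 48 and 5 without control replicate 2, 4 and 1 when 7KC replicate 1 was left out, and 2 and 2 without 7KC replicate 2, where the lone library of a group is assumed to vary like the others. The cause of these shifts was not tested.

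Same-numbered libraries deviated with r = -0.141 across genes, so the numbers were not taken as pairs. With the replicate block, 0 genes were called in either direction (1851 at an unadjusted limma p under 0.05). The crossed replicate block, added after seeing the data, gave 551 higher genes, 37 lower genes and 3 pathway genes.

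Hamp kept its sign under 14 alternatives, with 0.35 under the same library sum, 0.32 under quantile normalization, 0.64 relative to hepatocyte markers and 0.04 to 0.24 with 1 library left out. Hamp2 kept its sign under 14 alternatives, with -0.92 under the same library sum, -0.63 relative to hepatocyte markers and -1.27 to -0.98 with 1 library left out. Their sum was 0.30, 0.27 and 0.59 under the first 3 settings and -0.0038 to 0.19 with 1 library left out. Id1 and Fth1 kept their sign throughout, and Bmp6, Tfr2, Hfe, Slc40a1, Tfrc and Ftl1 changed it under 1 to 3 alternatives. The filter, variance trend and replicate block left the difference of each member kept as it was, so they could not change a sign. For members whose libraries did not overlap, leaving out 1 library could not change it either. Pcbp1 turned to 0.052 under the same library sum. Without control replicate 1, Ctgf passed the threshold (limma adjusted p = 0.0287). Beyond Hamp, Hamp2 and their sum, 13 values of members moved by more than the spread of replicates. List medians were held against a fixed cutoff and not against that spread, and 9 values moved past it. Leaving out 1 library moved the difference of 16 of the 30 other genes named by rule by over 1.5 times and changed the sign of 0. For a gene whose libraries do not overlap, leaving out 1 library cannot change the sign. The rule required this of the pathway genes, so the count of 0 says nothing about them.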

Other observations

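The genes next to the hepcidin pair on chromosome 7 were read for their own levels. Usf2, the neighbour downstream of whose 3′ end Hamp lies, was 40.7 and 40.4 FPKM in the control livers against 38.2 and 31.9 FPKM in the 7KC livers (log2 difference -0.21). Mag, on the far side of Hamp2, was 0.340 and 0.325 FPKM in the control livers against 1.05 and 1.43 FPKM in the 7KC livers (log2 difference 1.05). Cd22, a B-cell receptor gene, was 1.72 and 0.907 FPKM in the control livers against 1.77 and 2.58 FPKM in the 7KC livers. Lsr was 116.9 and 85.7 FPKM in the control livers against 99.9 and 98.1 FPKM in the 7KC livers. Of these 4 neighbours, Usf2 had both 7KC libraries below both control libraries, as did 27.4% of all genes. Mag and Cd22 had both 7KC libraries above both control libraries, as did 25.1% of all genes, and Lsr overlapped.

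Alas2, the form of the enzyme known from red cell precursors, stood at 25.9 to 44.6 FPKM, whereas Slc4a1 and Epb4.2, which encode proteins of the red cell membrane, were at no more than 0.0221 FPKM in the same libraries. Among the globins, Hba-a1 was 26.6 to 73.9 FPKM and Hbb-b2 was 4.36 to 13.8 FPKM, both highest in control replicate 1, whereas Hba-a2 and Hbb-bs reached 0.0332 and 0.00413 FPKM at most. Shared sequence was not examined for the globin genes. How reads were divided among them is thus not known, and the low values do not show that Hba-a2 and Hbb-bs were not expressed.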
